A study of Mus musculus with 13 samples.

Results

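The 10 transcripts Muc2, Gucy2c, Duox2, Misp, Tmprss9, Loxhd1, Cfap53, Pde6b, A3galt2 and Nmrk2, most of which adult brain is not known for, were followed over every library of this series. They are 10 of the 21056 genes present in all 4 deposited tables, and they were picked because gut, ear and retina transcripts stood higher in libraries from microglia-depleted mice. Their levels in depleted against non-depleted libraries are therefore what chose them, and are given below as a description with no test, the fitted log2 changes and their standard errors included. Values are normalised read counts (CPM, counts scaled to a library of a set size, each library scaled by trimmed mean of M-values), or length-corrected fragment counts (FPKM, as deposited) where genes are compared with each other.

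RNA was sequenced from brain of male mice in 4 groups. The sham_MG_DE mice (n = 4) had sham surgery after microglial depletion, and the sham_MG_CON mice (n = 3) had sham surgery without depletion. The tMCAO_MG_DE mice (n = 2) had a transient occlusion of the right middle cerebral artery (tMCAO, a filament model of stroke, 60 min before reperfusion) after depletion, and the tMCAO_MG_CON mice (n = 4) had the occlusion without depletion. All 4 groups, the non-depleted ones included, were CX3CR1creER/+ :Rosa26iDTR/+ mice given 2 doses of tamoxifen by gavage at 7 to 8 weeks. In these mice the Cx3cr1 locus drives an inducible Cre, which switches on a diphtheria toxin receptor in microglia and in other cells that express Cx3cr1. The depleted groups (DE) received diphtheria toxin at 50 ng/g on 3 consecutive days, 30 days after tamoxifen, and the non-depleted groups (CON) received normal saline. The genotype entries number the Rosa locus differently from sample to sample and were read as 1 genotype, and the surgery protocol gives an age of 6 to 8 weeks, which conflicts with the 30 days between tamoxifen and toxin. The library called tMCAO_MG_CON replicate 4 carries a treatment entry that reads sham surgery, and it was grouped by its title. Neither the interval between occlusion and dissection nor the brain region is given in the labels used here.

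Muc2, Gucy2c, Duox2 and Misp are known from intestinal epithelium, where goblet cells store gel-forming mucin, a guanylate cyclase at the brush border answers the peptides guanylin and uroguanylin, and a dual oxidase makes hydrogen peroxide at the luminal surface. Loxhd1 belongs to the hair cells of the inner ear, Cfap53 to motile cilia, and Pde6b to rod photoreceptors, where the phosphodiesterase it helps to form breaks down cGMP in the light response. Nmrk2 is known from striated muscle. Microglia are not known as a source of any of these transcripts.

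The 3 start regions below are shown because Muc2, Nmrk2 and Pde6b stand for 3 of the tissues in the set and lie on 3 chromosomes. They are the 250 bases before the gene start in RefSeq (build GRCm38.p6), written 5′ to 3′ on the gene's own strand. Capitals mark the letters TATAAA, the motif of a TATA box, where a search of both strands found them. They begin 174 bases before the start in Muc2 and 46 bases before it in Nmrk2. Whether they act as a TATA box was not tested. Muc2 comes from chr7:141690090-141690339 on the plus strand, Nmrk2 from chr10:81202038-81202287 on the minus strand and Pde6b from chr5:108388123-108388372 on the plus strand.
Muc2: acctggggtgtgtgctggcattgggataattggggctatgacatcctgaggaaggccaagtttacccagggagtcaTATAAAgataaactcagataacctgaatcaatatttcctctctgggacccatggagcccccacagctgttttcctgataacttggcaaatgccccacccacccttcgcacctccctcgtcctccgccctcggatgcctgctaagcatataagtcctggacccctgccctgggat
Nmrk2: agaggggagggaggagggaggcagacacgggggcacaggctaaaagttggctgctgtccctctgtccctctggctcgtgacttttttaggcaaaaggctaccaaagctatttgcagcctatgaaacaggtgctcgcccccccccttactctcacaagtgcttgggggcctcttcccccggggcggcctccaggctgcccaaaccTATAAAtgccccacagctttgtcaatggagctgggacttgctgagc
Pde6b: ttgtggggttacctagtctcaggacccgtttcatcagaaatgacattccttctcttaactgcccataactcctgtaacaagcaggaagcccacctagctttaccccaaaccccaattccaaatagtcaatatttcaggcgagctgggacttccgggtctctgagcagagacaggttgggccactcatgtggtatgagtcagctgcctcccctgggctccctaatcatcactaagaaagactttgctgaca
Of the 10 genes, 6 had a start region in the RefSeq table (Muc2, Duox2, Tmprss9, Pde6b, A3galt2 and Nmrk2), and 2 of these 6 held TATAAA, against 12.4% of 32851 start regions of that length. Their GC content ran from 46.4% in A3galt2 to 58.8% in Nmrk2, against a median of 52.4%. Of the other motifs searched on both strands, CACGTG (6.02% of start regions), CAAAGTCCA (0.384%), TTTATG (10.8%) and the NF-kB type motif (0.14%) were in none of the 6. TAATCC (6.25%) was in Tmprss9, and GTTGCC (10.4%) was in A3galt2. These 2 regions, chr10:80879566-80879815 and chr4:128759008-128759257, lie wholly inside the genes as placed by GENCODE M21. The gene starts there are 80871848 for Tmprss9 and 128755364 for A3galt2. Most of the Duox2 region, chr2:122298228-122298477, also lies inside its gene, which on the minus strand starts at 122298449. The Nmrk2 region reaches a few bases into its gene, which on the minus strand starts at 81202051. No motif was shared by more than 2 of the 6 start regions.

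Depth was alike over the 13 libraries, at 16239763 to 22080367 counts. The toxin's effect showed in the microglial receptor Csf1r, which had 6.1 to 16 CPM in sham_MG_DE, against 92 to 93.4 CPM in sham_MG_CON, and 6.08 to 8.51 CPM in tMCAO_MG_DE, against 76.4 to 97.4 CPM in tMCAO_MG_CON. All 14 microglial marker genes listed were lower in both depletion comparisons (edgeR, adjusted p under 0.05); fewer microglia and less RNA per cell cannot be told apart in bulk tissue. Mitochondrially encoded genes took 7.84% to 8.74% of counts in the 6 depleted libraries, against 9.03% to 9.86% in the 7 non-depleted ones. A gene count above 0 was found for 19201 to 19779 genes in sham_MG_DE, against 19015 to 19037 in sham_MG_CON, and for 19768 to 19859 in tMCAO_MG_DE, against 19329 to 19703 in tMCAO_MG_CON. The library sham_MG_DE replicate 1 had the fewest detected genes and the largest mitochondrial share of the 6 depleted libraries, and it stood apart for the 10 transcripts, as described next. The part of these library properties in the levels below was not tested.

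Summed over the 10 transcripts, the level was 8.76, 116.9, 79.7 and 67.2 CPM in the 4 sham_MG_DE libraries, against 1.61, 2.39 and 2.82 CPM in the 3 sham_MG_CON libraries. In the occluded brain the sum was 64.3 and 63.3 CPM in tMCAO_MG_DE, against 6.01, 6.91, 8.53 and 6.11 CPM in tMCAO_MG_CON. In 5 of the 6 depleted libraries the 10 transcripts thus summed to 63.3 CPM or more, while replicate 1 of sham_MG_DE held them at a level close to tMCAO_MG_CON. The mean sum was 29.9 times as high in sham_MG_DE as in sham_MG_CON, and 38.6 times as high without replicate 1; it was 9.27 times as high in tMCAO_MG_DE as in tMCAO_MG_CON. Csf1r in replicate 1, at 7.57 CPM, was within the range of the other depleted libraries.

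**Figure D1:**
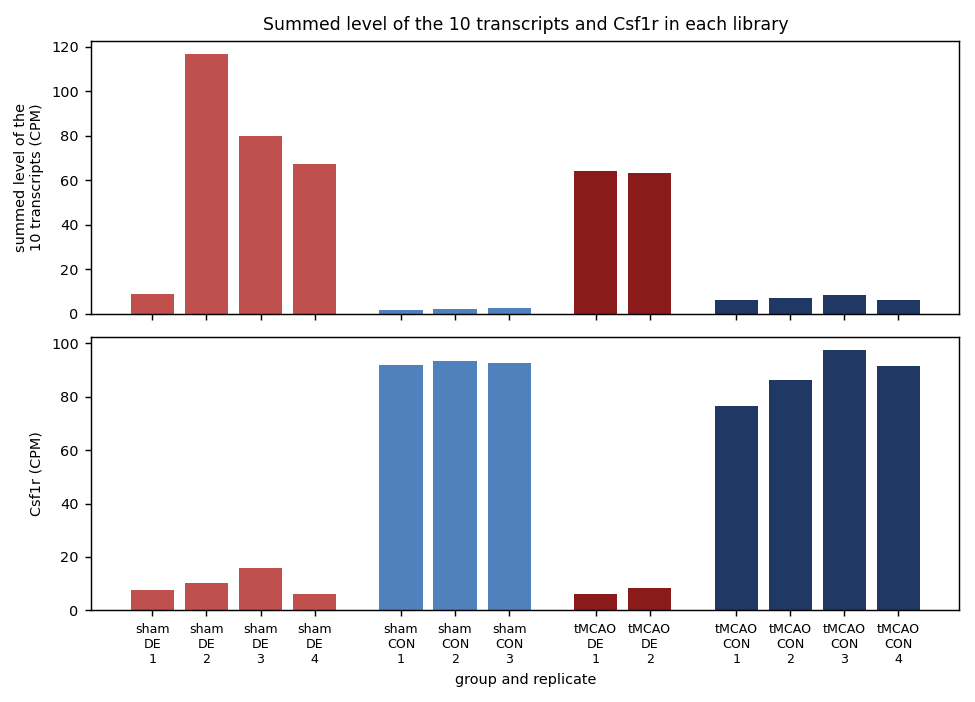
Bars give the summed CPM of the 10 transcripts (upper panel) and the CPM of Csf1r (lower panel) in each of the 13 libraries, 1 bar a library. The sum is 63.3 to 116.9 CPM in 5 depleted libraries and 8.76 CPM in sham_MG_DE replicate 1, while Csf1r is at or under 16 CPM in all 6.

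The mucin gene Muc2 (chromosome 7, 141690340 to 141754693, plus strand, 47 exon blocks in GENCODE M21 on GRCm38) encodes the main gel-forming mucin of the gut. It had 1.19, 13.7, 26.3 and 8.32 CPM in sham_MG_DE, against 0.376, 0.538 and 1.07 CPM in sham_MG_CON. With occlusion it had 11.4 and 8.91 CPM in tMCAO_MG_DE, against 0.993, 1.39, 1.41 and 0.922 CPM in tMCAO_MG_CON. No depleted library fell within the range of its non-depleted counterparts, although replicate 1 of sham_MG_DE exceeded the highest sham_MG_CON library by little. Muc2 was the exception in having its highest value in replicate 3 of sham_MG_DE; the other 9 transcripts had theirs in replicate 2. The fitted log2 change was 4.21 ± 0.81 (SE) in the sham brain and 3.10 ± 0.73 in the occluded brain.

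Gucy2c (chromosome 6, 136697284 to 136781765, minus strand, 27 exon blocks) encodes the intestinal receptor guanylate cyclase. Its level was 0.919, 8.96, 5.36 and 5.70 CPM in sham_MG_DE, against 0, 0.299 and 0.0565 CPM in sham_MG_CON. The occluded pair had 6.03 and 5.62 CPM in tMCAO_MG_DE, against 0.497, 1.25, 0.471 and 0.534 CPM in tMCAO_MG_CON. Depleted and non-depleted libraries did not overlap in either pair, and the log2 change was 5.45 ± 0.88 in the sham brain and 3.05 ± 0.65 in the occluded brain. Without sham_MG_CON replicate 2, the highest of its group, the change in the sham brain was 7.27.

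Duox2 (chromosome 2, 122279247 to 122298449, minus strand, 33 exon blocks), the dual oxidase of thyroid and gut epithelium, had 0.0541, 15.5, 6.58 and 6.56 CPM in sham_MG_DE, against 0, 0 and 0.113 CPM in sham_MG_CON. It had 7.83 and 7.65 CPM in tMCAO_MG_DE, against 0.276, 0.192, 0.0588 and 0.243 CPM in tMCAO_MG_CON. Of the 10 transcripts, Duox2 alone overlapped between sham_MG_DE and sham_MG_CON, since replicate 1 of sham_MG_DE held a single count of it. With 565 counts in sham_MG_DE against 2 in sham_MG_CON, the ratio of pooled rates was 201, with a 95% counting interval of 55.5 to 1667 that leaves out the spread between mice. The fitted log2 change in the occluded brain was 5.26 ± 1.06.

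Misp (chromosome 10, 79820989 to 79830490, plus strand, 7 exon blocks) encodes an actin-bundling protein of the cell cortex and mitotic spindle. It had 0.487, 11.1, 5.55 and 4.22 CPM in sham_MG_DE, against 0.268, 0 and 0 CPM in sham_MG_CON, and 1.51 and 3.04 CPM in tMCAO_MG_DE, against 0.276, 0.240, 0.412 and 0.340 CPM in tMCAO_MG_CON. The depleted libraries lay above the non-depleted ones in both pairs, with a log2 change of 5.75 ± 1.07 in the sham brain and 2.83 ± 0.91 in the occluded brain. All 5 Misp counts in sham_MG_CON were in replicate 1; without it that group stood at 0, and the fitted change of 9.66 then depends on the prior count. Among the 10 transcripts it had the largest drop in mean between depleted groups, at 2.27 CPM in tMCAO_MG_DE and 5.35 CPM in sham_MG_DE, within the spread of the sham_MG_DE libraries.

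Tmprss9 (chromosome 10, 80871848 to 80899492, plus strand, 19 exon blocks) encodes a membrane-bound serine protease with several protease domains; its exons overlap those of Timm13 on the opposite strand. It had 0.487, 9.82, 7.37 and 7.18 CPM in sham_MG_DE, against 0, 0.120 and 0.113 CPM in sham_MG_CON. The occluded libraries had 4.22 and 4.86 CPM in tMCAO_MG_DE, against 0.166, 0.480, 0.588 and 0.388 CPM in tMCAO_MG_CON. No library of one group fell within the other in either pair, and the log2 change was 6.25 ± 1.02 in the sham brain and 3.47 ± 0.77 in the occluded brain.

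Loxhd1 (chromosome 18, 77281958 to 77442930, plus strand, 44 exon blocks), a hair cell protein with PLAT domains, had 1.78, 19.6, 9.57 and 13.2 CPM in sham_MG_DE, against 0.268, 0.179 and 0.226 CPM in sham_MG_CON. It had 13.1 and 11.2 CPM in tMCAO_MG_DE, against 0.552, 0.959, 0.647 and 0.534 CPM in tMCAO_MG_CON. Even the lowest depleted library, replicate 1 of sham_MG_DE, lay above all 7 non-depleted libraries. The log2 change was 5.58 ± 0.76 in the sham brain and 4.16 ± 0.62 in the occluded brain.

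Cfap53 (chromosome 18, 74283090 to 74359986, plus strand, 12 exon blocks), a protein of motile cilia, had 0.757, 7.32, 6.40 and 5.02 CPM in sham_MG_DE, against 0.107, 0.179 and 0.226 CPM in sham_MG_CON. Its level was 4.47 and 4.81 CPM in tMCAO_MG_DE, against 0.110, 0.240, 0.823 and 0.388 CPM in tMCAO_MG_CON. The groups of each pair did not overlap, and the log2 change was 4.79 ± 0.80 in the sham brain and 3.58 ± 0.68 in the occluded brain.

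Pde6b (chromosome 5, 108388391 to 108432397, plus strand, 18 exon blocks) encodes the beta subunit of the rod cGMP phosphodiesterase. It had 1.30, 15.0, 5.55 and 8.78 CPM in sham_MG_DE, against 0.161, 0.598 and 0.452 CPM in sham_MG_CON. With occlusion it had 11.2 and 11.4 CPM in tMCAO_MG_DE, against 2.54, 1.15, 2.76 and 1.75 CPM in tMCAO_MG_CON. Depleted libraries lay above non-depleted ones within each pair, with a log2 change of 4.25 ± 0.75 in the sham brain and 2.48 ± 0.60 in the occluded brain.

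A3galt2 (chromosome 4, 128755364 to 128769298, plus strand, 6 exon blocks), which makes the glycolipid isogloboside 3 in rodents, had 1.14, 10.5, 4.27 and 5.64 CPM in sham_MG_DE, against 0.215, 0.299 and 0.452 CPM in sham_MG_CON. It had 3.26 and 4.0 CPM in tMCAO_MG_DE, against 0.607, 0.719, 1.12 and 0.873 CPM in tMCAO_MG_CON. Its log2 change of 2.13 ± 0.59 in the occluded brain was the smallest of the 10, and in the sham brain it was 4.05 ± 0.66.

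Nmrk2 (chromosome 10, 81198170 to 81202051, minus strand, 7 exon blocks), the nicotinamide riboside kinase of muscle, had 0.649, 5.32, 2.80 and 2.57 CPM in sham_MG_DE, against 0.215, 0.179 and 0.113 CPM in sham_MG_CON; Atcayos overlaps it on the opposite strand. Its level was 1.31 and 1.77 CPM in tMCAO_MG_DE, against 0, 0.288, 0.235 and 0.146 CPM in tMCAO_MG_CON. The groups did not overlap in either pair, and the log2 change was 4.02 ± 0.74 in the sham brain and 3.14 ± 0.76 in the occluded brain.

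**Figure D2:**
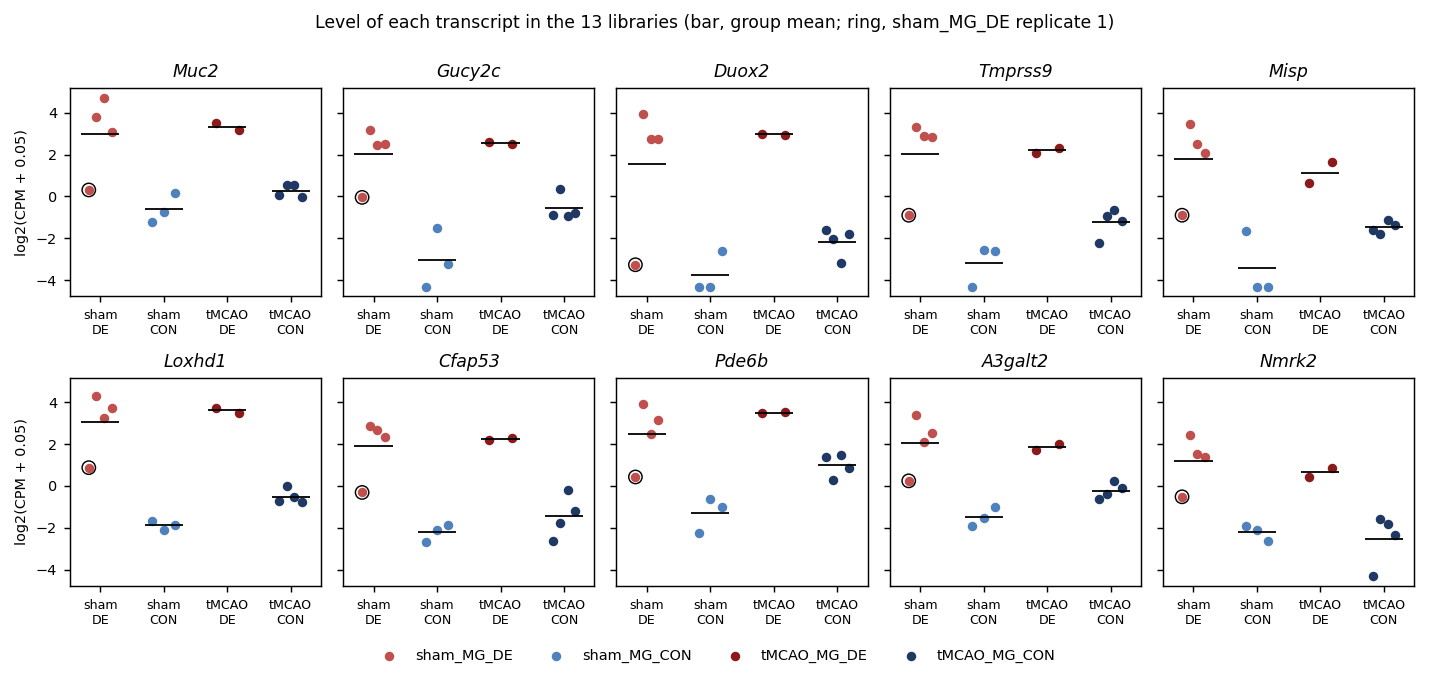
Each panel gives log2(CPM + 0.05) of 1 transcript in the 13 libraries, 1 point a library, with a bar at the group mean and a ring round sham_MG_DE replicate 1. In each panel sham_MG_DE replicate 1 is the lowest of its group, and the 2 tMCAO_MG_DE libraries lie above all 4 tMCAO_MG_CON libraries.

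Across the set, replicate 1 of sham_MG_DE was the lowest of its group for 10 of 10 transcripts and replicate 2 the highest for 9 of 10. The mean of the other 3 sham_MG_DE libraries was 5.49 times (Nmrk2) to 177 times (Duox2, on 1 count) the value in replicate 1. That library was above all 3 sham_MG_CON libraries for 9 of 10 transcripts and above all 4 tMCAO_MG_CON libraries for 4 of 10 (Misp, Loxhd1, A3galt2 and Nmrk2). These counts come from the levels that chose the set. The share of all genes doing the same was not worked out, so nothing is read from them.

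Levels were compared between the transcripts per length. In sham_MG_DE the mean ran from 1.02 ± 0.65 FPKM for Gucy2c to 2.13 ± 1.76 FPKM for Misp (SD, n = 4), so that no neighbours in that order differed beyond their spread. In tMCAO_MG_DE it ran from 0.706 ± 0.095 FPKM for A3galt2 to 1.70 ± 0.005 FPKM for Pde6b (SD, n = 2), and Pde6b stood above the next, Tmprss9 at 1.31 ± 0.12 FPKM, by more than their spread. In tMCAO_MG_CON it ran from 0.0295 ± 0.015 FPKM for Duox2 to 0.314 ± 0.117 FPKM for Pde6b (n = 4), and in sham_MG_CON from 0.00537 ± 0.0093 FPKM for Duox2 to 0.0887 ± 0.027 FPKM for Nmrk2 (n = 3). Duox2 was thus lowest in both non-depleted groups, on 15 counts in tMCAO_MG_CON and 2 in sham_MG_CON.

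All 10 transcripts passed the low-count filter, which the depleted libraries alone could satisfy. In sham_MG_DE against sham_MG_CON, 9 of 10 were higher without overlap. Of the 16940 genes tested, 2036 were higher without overlap there, and 22.9% did not overlap in either direction. In tMCAO_MG_DE against tMCAO_MG_CON, 10 of 10 were higher without overlap, where 22.6% of genes were. Both counts follow from how the transcripts were picked and are not evidence for them. The median log2 change of the set was 5.12 in the sham brain and 3.12 in the occluded brain, beside 0.00 and -0.01 over all genes tested, and the transcripts ranked 3 (Duox2) to 98 (Nmrk2) by log2 change in the sham brain. The difference between these 2 medians was not tested.

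The rule did not use the occlusion comparisons themselves, but all 13 libraries in them also stand in the depletion comparisons that chose the set. Levels in both arms of each occlusion comparison were therefore part of the choice, and the tests below are not independent of it. In tMCAO_MG_CON against sham_MG_CON, 0 of 10 transcripts passed an adjusted p of 0.05 in edgeR's quasi-likelihood test, where 8.44% of genes passed in either direction, and 2 of 10 had an unadjusted p under 0.05. These were Pde6b, with a log2 change of 2.33 ± 0.80 (adjusted p = 0.093), and Gucy2c, with 2.55 ± 1.06 (adjusted p = 0.16). DESeq2 called the same 2 genes, with adjusted p = 0.020 for Pde6b and 0.023 for Gucy2c. Over all genes, the alternative fits that were not leave-one-out called 958 to 1992 in this comparison, beside 1430 in the main fit. Of the 10, 9 had a log2 change above 0, against 52.6% of genes; the exception was Nmrk2 at -0.00 ± 1.03. For 5 of 10 (Gucy2c, Tmprss9, Loxhd1, Pde6b and A3galt2) the groups did not overlap, with every tMCAO_MG_CON library higher, where 13.1% of genes did so. The median log2 change was 1.62, beside 0.02 over all genes. Nothing particular to the set is read from these counts, since the same libraries chose it. Gucy2c was at 4.37 (adjusted p = 0.13) without sham_MG_CON replicate 2. The library sham_MG_DE replicate 1 is not in the contrast but enters the shared estimate of spread. Leaving it out raised the genes called over all genes from 1430 to 1814. In that setting 4 of 10 transcripts passed (Gucy2c, Tmprss9, Loxhd1 and Pde6b, edgeR adjusted p = 0.038, 0.035, 0.049 and 0.015). These values rest on 30 to 50 counts a library over the whole set in sham_MG_CON.

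In tMCAO_MG_DE against sham_MG_DE, 0 of 10 transcripts passed in edgeR, where 12.4% of genes did, 0 of 10 had an unadjusted p under 0.05, and DESeq2 also called 0. Over all genes, the alternative fits that were not leave-one-out called 1120 to 2633 in this comparison. The log2 changes ran from -1.24 ± 0.78 for Misp (adjusted p = 0.33) to 0.56 ± 0.57 for Pde6b (adjusted p = 0.57), with a median of -0.18, beside -0.00 over all genes. In each of the 10 the 2 occluded libraries lay within the range of the 4 sham libraries or overlapped it. Standard errors of these log2 changes were 0.53 to 0.80.

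**Figure D3:**
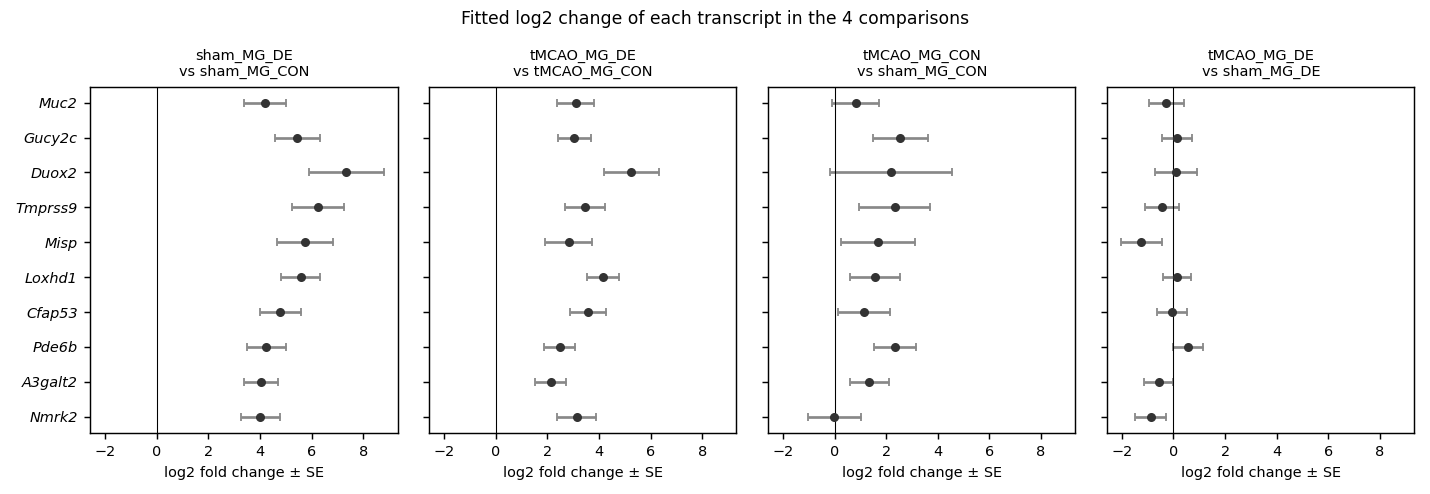
Points give the fitted log2 fold change of each transcript, with its standard error, in the 4 comparisons, 1 panel each. In the 2 depletion panels all 10 points lie above 0 by their selection, while in the tMCAO_MG_DE against sham_MG_DE panel they run from -1.24 to 0.56.

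Other genes of the same tissues were listed and tested, leaving out the 10. The lists were chosen with earlier results of these data known. Genes with few counts in the non-depleted libraries could pass the low-count filter only through the depleted ones. Aipl1, Sis, Duoxa1, Muc6, Muc5b, Atp8b3 and Ctrb1 below are among them, and their p-values are a description and not support. Over lists for intestinal epithelium, inner ear hair cells, photoreceptors, motile cilia and striated muscle, 73 of 128 genes were tested, and 6 rose and 1 fell in sham_MG_DE against sham_MG_CON, with a median log2 change of 0.26. In tMCAO_MG_DE against tMCAO_MG_CON, 9 rose and 2 fell, with a median of 0.28. Over all genes, 6.85% rose and 4.49% fell in the sham brain, and 9.36% rose and 9.26% fell in the occluded brain. Calls over all genes, in either direction, also moved in the sham brain, from 1921 with all libraries to 3725 without sham_MG_DE replicate 1. They were 591 without sham_MG_CON replicate 3. The count of list genes that rose in the sham brain was 16 without sham_MG_DE replicate 1 and 3 without sham_MG_CON replicate 3. In the occluded brain the count of list genes that rose fell when either tMCAO_MG_DE library was left out. Calls over all genes fell there too. Those fits keep 1 library in that group, so the fall is not read as particular to the lists.

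Of 12 photoreceptor genes tested, 3 rose in the sham brain and 4 in the occluded brain. The count in the occluded brain fell when either tMCAO_MG_DE library was left out, as did calls over all genes. Only 1 library of that group then remained. Without sham_MG_DE replicate 1, 4 photoreceptor genes and 5 intestinal genes rose in the sham brain, against 3 and 1 with all libraries. Over all genes, 3725 were called in either direction in that setting, against 1921 with all libraries. Aipl1, a chaperone for the phosphodiesterase that Pde6b belongs to, had 0.324, 2.45, 1.40 and 2.68 CPM in sham_MG_DE, against 0.107, 0 and 0 CPM in sham_MG_CON, and 1.36 and 2.13 CPM in tMCAO_MG_DE, against 0, 0.144, 0.0588 and 0.0970 CPM in tMCAO_MG_CON. With 130 counts against 2 in the sham brain, the ratio was 46.3 (95% counting interval 12.6 to 387), and in the occluded brain the log2 change was 4.37 ± 0.83 (edgeR adjusted p = 0.0054). Sag, the rod arrestin, rose by 0.83 ± 0.22 and 0.73 ± 0.23 in the sham and occluded brain (edgeR adjusted p = 0.032 and 0.043), and Guca1b, a guanylate cyclase activator, rose by 1.58 ± 0.39 in the occluded brain (adjusted p = 0.017). The related subunit gene Pde6g, which encodes the inhibitory gamma subunit, had a log2 change of 0.10 ± 0.66 in the sham brain and -0.51 ± 0.75 in the occluded brain (adjusted p = 0.94 and 0.67).

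Of 15 inner ear genes tested, Myo15, a motor protein of hair cell stereocilia, rose in both pairs, by 2.74 ± 0.50 in the sham brain (edgeR adjusted p = 0.0075) and 1.98 ± 0.47 in the occluded brain (adjusted p = 0.014). Cdh23, a stereocilia tip link cadherin, rose by 2.17 ± 0.49 in the occluded brain (adjusted p = 0.011). Of 8 intestinal genes tested, Mttp, which loads lipid onto apolipoprotein B, rose in the sham brain by 0.84 ± 0.18 (adjusted p = 0.015). In the occluded brain the goblet cell factor Spdef rose by 2.27 ± 0.52 and the brush border enzyme Sis by 2.02 ± 0.51 (edgeR adjusted p = 0.012 and 0.018). Sis passed the low-count filter only through the depleted libraries, so its p-value is not support for a change. Of the 30 intestinal genes listed, 16, Cdx2, Fabp1, Tff3 and the peptide ligands of Gucy2c among them, were not among the genes common to the 4 tables and were not analysed here. With all libraries, none of 22 motile cilia genes rose in either pair with edgeR, and 2, Ccdc39 and Cfap44, fell in the occluded brain. Without sham_MG_DE replicate 1, 3 rose in the sham brain and 1 in the occluded brain. Calls over all genes, in either direction, were 3725 and 3873 in that setting, against 1921 and 3155 with all libraries. Motile cilia genes outside the set were present without depletion, and summed to 79.9 to 91.0 CPM in sham_MG_CON. Of 16 muscle genes, Myh4 rose by 1.04 ± 0.30 and Mybpc3 fell by 1.45 ± 0.41 in the sham brain (adjusted p = 0.042 and 0.037), and Acta1 rose by 1.09 ± 0.21 in the occluded brain (adjusted p = 0.0058).

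Genes of the same protein families were mixed. Duoxa1, a maturation factor of dual oxidases, had 0 counts in all 7 non-depleted libraries and in sham_MG_DE replicate 1, and 2.14, 0.731 and 1.37 CPM in the other 3 sham_MG_DE libraries, with 1.21 and 1.27 CPM in tMCAO_MG_DE. Set against a floor of 3 counts a library, it was at least 6.23-fold higher in sham_MG_DE than in sham_MG_CON and at least 7.83-fold higher in tMCAO_MG_DE than in tMCAO_MG_CON (edgeR adjusted p = 0.050 and 0.026). Duoxa1 passed the low-count filter only through the depleted libraries, so these p-values are not support for a change. Of the phagocyte NADPH oxidase genes in that list, Ncf1 fell in both pairs (log2 change of -1.23 in the sham brain and -1.45 in the occluded brain), and Cybb fell in the occluded brain. Among 5 mucin genes tested, the stomach mucin Muc6 rose in both pairs, with 102 counts in sham_MG_DE against 1 in sham_MG_CON (ratio 72.7, 95% counting interval 12.8 to 2899) and a log2 change of 2.53 ± 0.82 in the occluded brain (edgeR adjusted p = 0.048), and Muc1 rose by 1.26 ± 0.34 in the occluded brain (adjusted p = 0.022). Among 5 transmembrane serine proteases, Hpn rose by 1.08 ± 0.29 in the sham brain and 0.99 ± 0.32 in the occluded brain (adjusted p = 0.031 and 0.046). None of 6 genes of receptor guanylate cyclases and their ligands, and none of 7 cGMP phosphodiesterase genes, passed in either pair with edgeR. Of 14 genes listed for NAD metabolism, Sarm1 rose by 0.57 ± 0.14 in the sham brain (edgeR adjusted p = 0.023). Nmrk1, the paralogue of Nmrk2, fell by 0.73 ± 0.23 in the occluded brain (adjusted p = 0.041). The 7 other glycosyltransferases listed with A3galt2 gave no call in the sham brain, and Ggta1, B3galnt1 and B3galt2 fell in the occluded brain.

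The set is spread over 7 chromosomes, with 3 transcripts on chromosome 10, 2 on chromosome 18 and 1 each on chromosomes 2, 4, 5, 6 and 7. The 2 nearest protein-coding genes on each side of each transcript made 40 neighbours, of which 33 were tested. In the sham brain 3 rose and 0 fell (Dapk3, Duoxa1 and Muc6), beside 6.85% of all genes, with a median log2 change of -0.04. In the occluded brain 6 rose (Ap2a2, Atf7ip, Duoxa1, Gadd45b, Mbd1 and Muc6) and 1 fell (Zfr2), beside 9.36% and 9.26% of all genes. The count in the sham brain was 7 without sham_MG_DE replicate 1 and 1 without sham_MG_CON replicate 2. In the occluded brain it was 3 without tMCAO_MG_CON replicate 3. It was lower still without either tMCAO_MG_DE library, where calls over all genes fell too and 1 library of that group remained. Over all genes, calls in either direction in the sham brain went from 1921 to 3725 without sham_MG_DE replicate 1. Duoxa1 and Muc6 passed the low-count filter only through the depleted libraries. Duoxa1 lies 3742 bp from Duox2, and Muc6 lies 35021 bp from Muc2 in the cluster of gel-forming mucin genes. Muc5b, on the other side of Muc2, had 0 counts in both non-depleted groups and averaged 0.351 CPM in sham_MG_DE and 0.405 CPM in tMCAO_MG_DE (edgeR adjusted p = 0.11 against sham_MG_CON and 0.064 against tMCAO_MG_CON). Of the very close neighbours, Palm, 93 bp from Misp, averaged 194 CPM in sham_MG_DE and 211 CPM in sham_MG_CON (log2 change -0.12 ± 0.09, edgeR adjusted p = 0.38), with -0.09 ± 0.10 in the occluded brain (adjusted p = 0.54). Mbd1, 358 bp from Cfap53, averaged 34.2 CPM in sham_MG_DE and 31.0 CPM in sham_MG_CON (log2 change 0.14 ± 0.08, edgeR adjusted p = 0.28), and it rose by 0.50 ± 0.09 in the occluded brain (adjusted p = 0.0042).

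**Figure D4:**
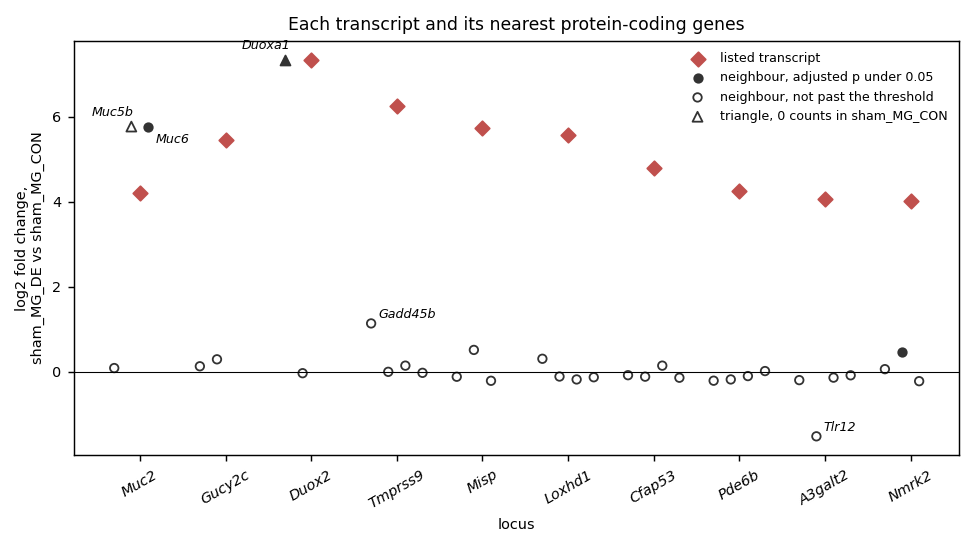
The vertical axis gives the log2 fold change of sham_MG_DE against sham_MG_CON for each transcript (diamond) and for its tested neighbours (circles and triangles, filled where the edgeR adjusted p is under 0.05); triangles mark genes with 0 counts in sham_MG_CON, whose height depends on the prior count. Most neighbours lie near 0, and Duoxa1 and the mucin genes beside Muc2 stand high.

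Misp, Tmprss9 and Nmrk2 lie within a stretch of 1381063 bp of chromosome 10 (79820989 to 81202051). Of the 79 other protein-coding genes between them, 71 were tested and 8 rose in the sham brain, or 11.3%, while 1 (Eef2) fell, beside 6.85% and 4.49% of all genes. In the occluded brain 9 of the 71 rose, or 12.7%, and 1 (Izumo4) fell, beside 9.36% and 9.26%. The genes that rose in the sham brain were Ap3d1, Atp8b3, Dapk3, Grin3b, Lingo3, Pcsk4, Reep6 and Wdr18, with log2 changes of 0.28 ± 0.08 (Wdr18) to 5.15 ± 0.92 (Atp8b3). Of these, Atp8b3, Lingo3, Pcsk4 and Wdr18 also rose in the occluded brain, while Ap3d1, Dapk3, Grin3b and Reep6 did not pass there (edgeR adjusted p = 0.15, 0.057, 0.23 and 0.054). Atp8b3 passed the low-count filter only through the depleted libraries.

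By the root mean square difference of centred log2 CPM over the 13 libraries from the median profile of the set, the 10 most like genes outside it were Psca, Cldn15, Atp8b3, Pabpc1l, Hsh2d, Aipl1, 1700019B03Rik, Prss38, Igfbp1 and Alox15. Their differences ran from 0.547 to 0.583, against a median of 1.92 over all genes outside the set, and the 10 transcripts themselves lay 0.459 (Tmprss9) to 1.05 (Duox2) from the median of the other 9. Likeness was measured over the same depleted libraries that chose the set, so these genes repeat its pattern by construction. The most like, Psca, a small membrane-anchored protein of stomach and bladder epithelium, had 0.162, 2.23, 1.71 and 2.05 CPM in sham_MG_DE, against 0, 0.179 and 0 CPM in sham_MG_CON. It had 1.86 and 2.48 CPM in tMCAO_MG_DE, against 0.331, 0.192, 0.118 and 0.0970 CPM in tMCAO_MG_CON. Cldn15, a claudin of intestinal tight junctions, had 0.378, 5.68, 3.41 and 2.05 CPM in sham_MG_DE, against 0.107, 0 and 0.226 CPM in sham_MG_CON. For both genes replicate 1 of sham_MG_DE was again the lowest of its group.

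Markers of cells that could enter a brain sample differed from library to library. Summed blood genes had 1.14 to 31.9 CPM in sham_MG_DE, against 2.31 to 30.3 CPM in sham_MG_CON, and 5.92 to 7.43 CPM in tMCAO_MG_DE, against 0.728 to 37.4 CPM in tMCAO_MG_CON, so that the ranges overlapped. Choroid plexus genes had 3.95 to 7.59 CPM in sham_MG_DE, against 3.78 to 15.1 CPM in sham_MG_CON, and 8.39 to 9.16 CPM in tMCAO_MG_DE, against 5.61 to 12.6 CPM in tMCAO_MG_CON. Of the choroid list, Slc4a5 rose by 3.62 ± 0.99 and Ttr fell by 2.56 ± 0.73 in the sham brain (edgeR adjusted p = 0.034 and 0.040), and Kcne2 rose by 2.71 ± 0.73 in the occluded brain (adjusted p = 0.023). Neutrophil genes had 2.05 to 36.4 CPM in sham_MG_DE, against 1.29 to 35.5 CPM in sham_MG_CON, and 3.39 to 12.8 CPM in tMCAO_MG_DE, against 1.36 to 3.35 CPM in tMCAO_MG_CON. The neutrophil sums thus did not overlap in the occluded brain, where they were higher in the depleted libraries as the 10 transcripts were; 0 of 7 neutrophil genes passed there with edgeR, with a median log2 change of 1.73. For genes of other organs outside the set, the pancreatic protease Ctrb1 was at least 7.65-fold higher in sham_MG_DE than in sham_MG_CON, set against the same floor (edgeR adjusted p = 0.030), the plasma protein gene Hpx rose by 2.75 ± 0.57 (adjusted p = 0.013) and the sperm protease Acr rose by 1.0 ± 0.25 (adjusted p = 0.026). These are 1 of 5 pancreas, 1 of 3 liver and 1 of 4 testis genes tested, beside 6.85% of all genes; of the same 3 liver genes, Ttr was the one that fell. In the occluded brain 0 of the 5 pancreas and 0 of the 3 liver genes passed, and of the testis genes Acr rose by 1.02 ± 0.26 (adjusted p = 0.018). The part of neutrophils, choroid plexus and other tissues in the levels of the 10 transcripts was not tested.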

How the data were processed

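Brain RNA from 13 mice was sequenced from TruSeq paired-end libraries, per the labels' protocols. The authors deposited 1 table a group, with raw counts and FPKM per gene and library; Cufflinks 2.1.1, Cuffdiff and the mm10 build are named in the submitters' processing notes, and the aligner, annotation, counting tool and strand setting are not stated there. Each column of counts or FPKM per library had a sample. A further column in each table held the mean FPKM of the group and was not used. Entries with date-like names (25 in the sham tables, 26 in the tMCAO tables) were left out and repeated symbols summed, leaving 21056 genes common to the 4 tables.

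Counts as deposited were tested with edgeR 4.0.16 (R 4.3.3; quasi-likelihood, TMM, filterByExpr with a smallest group of 2) in 1 model of 4 group means, with Benjamini-Hochberg adjustment over 16940 genes. SE is the log2 change over the root of F. Floors are 3 counts a library and intervals are 95%; both cover counting error only. Alternatives were DESeq2 1.42.0, limma 3.58.1 on log2(FPKM + 0.1) or log2(FPKM + 1), no filter, a replicate block, each library left out and, chosen after seeing the data, the 2 groups only on the same genes. The edgeR step was tested on simulated data. Nothing in the labels says that the mice of a group were handled apart, so p-values measure the spread between these samples. The named genes are the 10 transcripts, their called list genes and neighbours, and the 10 most like genes. Some called list genes are not reported here. The transcripts and lists were chosen with earlier results of these data known. Replicate numbers did not pair the samples (r = -0.064 to 0.107). Gene positions are from GENCODE M21 and start regions from RefSeq.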

Additional observations from a re-analysis of the deposited data

Results flagged for a closer look

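Of 22 sets of 4 libraries examined for a library apart from the rest, 1 was flagged, and chance flags about 1 in 20. In tMCAO_MG_CON, Gucy2c had 1.25 CPM in replicate 2, while the next highest library had 0.534 CPM. Without that replicate the log2 change of Gucy2c in tMCAO_MG_DE against tMCAO_MG_CON was 3.52, beside 3.05 with all libraries.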

How the results depend on the processing

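In the depletion comparisons, all 400 alternative log2 changes of the 10 transcripts were above 0 (lowest 0.55), and in the occlusion comparisons 374 of 400 kept direction and side of the threshold, 7 passed it and 19 turned sign without passing it; the cause was not tested. In the order sham depletion, tMCAO depletion, tMCAO_MG_CON against sham_MG_CON and tMCAO_MG_DE against sham_MG_DE, the median log2 change of the set was 2.88, 2.45, 0.61 and 0.28 with limma on log2(FPKM + 0.1) and 1.01, 1.0, 0.11 and 0.030 on log2(FPKM + 1), which shrinks low genes by construction. Single genes that turned sign there in the last comparison were Muc2 (0.28 and 0.0051), Tmprss9 (0.082, first scale) and Cfap53 (0.28 and 0.056); Nmrk2 turned to 0.0042 in the third. Replicate numbers did not pair samples; with the replicate block, 823 genes passed in sham depletion and 1341 in tMCAO_MG_DE against sham_MG_DE, 3 listed tissue genes and 1 neighbour rose in the sham brain, the median was 3.53 in tMCAO depletion and 0.58 in tMCAO_MG_DE against sham_MG_DE, where Muc2 was at 0.58, Tmprss9 at 0.54 and Cfap53 at 0.77. With DESeq2, 12 listed tissue genes and 5 neighbours rose in the sham brain and 2 of the 10 passed in tMCAO_MG_CON against sham_MG_CON. Over all genes, the alternatives that were not leave-one-out called 569 to 2547 in sham depletion and 2324 to 3685 in tMCAO depletion. They called 958 to 1992 in tMCAO_MG_CON against sham_MG_CON. In the sham brain 1 neighbour rose with limma on log2(FPKM + 1), and in the occluded brain 2 and 3 neighbours rose on the 2 limma scales. With the libraries of the 2 groups only, 569 genes passed in sham depletion and 1120 in tMCAO_MG_DE against sham_MG_DE, 1 neighbour rose in the sham brain, and 1 of the 10 passed in tMCAO_MG_CON against sham_MG_CON (Pde6b, adjusted p = 0.022). The summed level ratio in tMCAO depletion was 9.09 on raw totals and 8.79 in FPKM.

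Leaving out each library in turn, genes passing ran from 591 (without sham_MG_CON replicate 3) to 3725 (without sham_MG_DE replicate 1) in sham depletion, 351 to 3873 in tMCAO depletion (lowest without tMCAO_MG_DE replicate 2), 564 to 1814 in tMCAO_MG_CON against sham_MG_CON and 459 to 2096 in tMCAO_MG_DE against sham_MG_DE. Medians of the set ran from 4.70 to 5.48, 2.98 to 3.46, 1.36 to 1.67 and -0.55 to 0.092. Transcripts passing ran from 0 to 4 in tMCAO_MG_CON against sham_MG_CON. Listed tissue genes that rose ran from 3 to 16 and 1 to 11, and neighbours from 1 to 7 and 1 to 9, in the sham and occluded brain. Ratios of the summed level ran from 22.8 to 38.6 and 8.89 to 10.1. The log2 changes that turned sign ran from -0.42 to 0.37 for Nmrk2 in tMCAO_MG_CON against sham_MG_CON and, in tMCAO_MG_DE against sham_MG_DE, from -0.66 to 0.38 for Muc2, -0.20 to 0.55 for Gucy2c, -0.31 to 0.82 for Duox2, -0.22 to 0.57 for Loxhd1 and -0.43 to 0.20 for Cfap53. Where a group kept 1 library, that library was taken to vary like the rest. Depth limits the non-depleted values, since sham_MG_CON held 30 to 50 counts a library over the 10 transcripts.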
